A study of Mus musculus with 8 samples.

Results

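The Fat and Cadm genes encode 2 families of adhesion proteins on the cell surface. Their 8 mouse members, Fat1 to Fat4 and Cadm1 to Cadm4, were taken by gene symbol, and every probe set annotated to exactly 1 of these symbols was used. 7 of the 8 genes had a probe set, 21 probe sets in all out of 35556 on the array, of which 15 belonged to Fat3. No probe set used here was annotated to Cadm2, so it has no value. The main value of a gene was that of its probe set with the highest mean level. The families were picked from results of this comparison, the differences between transgenic and wild-type arrays, so the differences of members are described here without a test of their own.

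The samples were the epididymal white fat of male C57BL/6 mice, a visceral depot. Every mouse was first kept for 2 weeks on a diet with 10% of energy as fat and then for 16 weeks on one with 45%. There were 4 arrays of wild-type mice (WT) and 4 of mice that overexpress a transgene for human IL-37 (IL37TG), a cytokine of the interleukin-1 family. Per the labels the wild-type mice were bought from the Jackson Laboratories and the transgenic line had been described before, so the source of the mice and the transgene cannot be told apart. The element that drives the transgene, the age of the mice and whether each array held a separate mouse are not stated in the labels, and p-values then measure only the spread between these samples. Adipocyte markers were abundant, with a list mean between 11.77 and 12.18 log2 units on the 8 arrays, and array medians lay between 5.97 and 6.04. The number of arrays limits the precision. These are whole-tissue samples, in which fewer cells of a type and less RNA per cell cannot be told apart.

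Fat proteins are very large atypical cadherins, named after a tumour suppressor of the fruit fly. Fat4 binds the cadherin Dchs1 on a neighbouring cell, a contact known for planar cell polarity and for input into the Hippo kinase pathway, which holds the co-activators YAP and TAZ in check. Cadm proteins, also called nectin-like or SynCAM proteins, belong to the immunoglobulin superfamily and bind each other, or nectins, across cell contacts without calcium. Cadm1 is known from epithelia, synapses and mast cells, and Cadm3 and Cadm4 from the contact of axons with Schwann cells.

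In these families a single gene of each stood lower in transgenic fat. Cadm1 was 2.97-fold lower and Fat3 was 3.28-fold lower, whereas the 5 other measured genes differed by at most 0.20 log2 units either way. Wild-type and transgenic values did not overlap for 2 of the 7 genes, Fat3 and Cadm1. Over all 18820 genes 14.0% had groups that did not overlap, 5.73% with lower transgenic values. In the limma fit over all genes 3.34% passed a Benjamini-Hochberg adjusted p of 0.05, 1.27% as lower. Cadm1 was the only member among those and Fat3 was not. Since the members were proposed from this contrast, nothing is read from these counts.

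**Figure D1:**
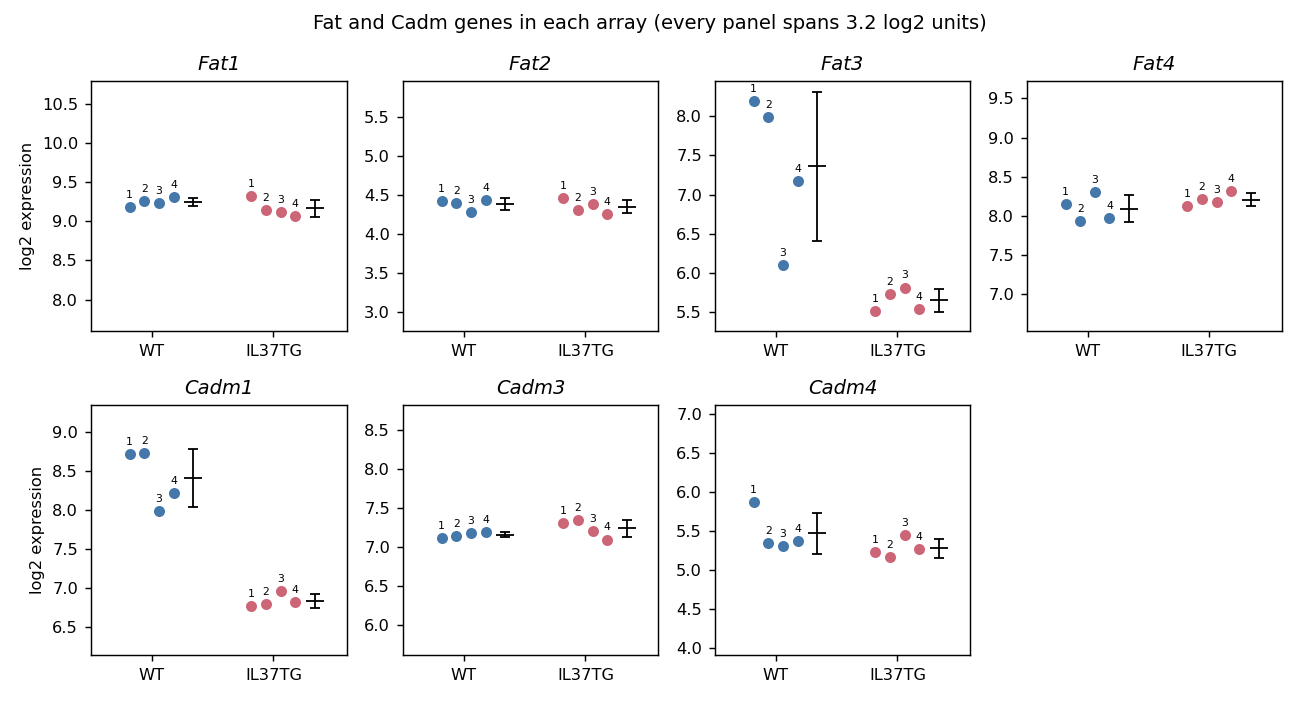
Log2 expression of the 7 measured Fat and Cadm genes (vertical axes) in each array by group, with the replicate number over each point and the mean and SD beside the points. Every panel spans the same range, and the groups are apart for Fat3 and Cadm1, with wild-type replicate 3 lowest of the wild-type arrays in both.

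Fat3, known from the dendrites of retinal and other neurons, was read by 15 probe sets. On the main one (10591129) the wild-type arrays gave 8.19, 7.99, 6.10 and 7.17 log2 units for replicates 1 to 4. The transgenic arrays gave 5.51, 5.73, 5.81 and 5.54. The transgenic values lay close together. The wild-type values were spread over 2.10 log2 units, and the lowest of them, replicate 3, lay 0.28 above the highest transgenic array. The group means were 7.36 ± 0.95 and 5.65 ± 0.15 (SD, n = 4 each), a difference of -1.71 (SE 0.41). The SD of the wild-type group was 6.56 times that of the transgenic group, a ratio reached by 1.30% of all genes.

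Because Fat3 carries the widest difference among the members, the 250 bases before its annotated start are shown, with each CG dinucleotide in capitals (RefSeq, GRCm38.p6, minus strand, chr9:16502055-16502304).
Fat3: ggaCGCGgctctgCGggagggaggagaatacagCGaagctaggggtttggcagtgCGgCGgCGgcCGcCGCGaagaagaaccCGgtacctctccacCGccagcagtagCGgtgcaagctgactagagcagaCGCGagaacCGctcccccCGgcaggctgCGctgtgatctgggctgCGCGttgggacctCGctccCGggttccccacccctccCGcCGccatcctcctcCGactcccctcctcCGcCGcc
The window held 27 CG dinucleotides, a number reached by 8.56% of 32851 promoter windows of this length, whose median was 6. RefSeq also has a longer model of Fat3 that begins farther upstream, so the window lies inside that model. The letters GAGGAA, the core of sites for the myeloid factor PU.1, were not in the window on either strand and were in 23.3% of all windows. The letters GGAATG, the core of sites for the TEAD factors to which YAP and TAZ bind, were not in it either and were in 12.6% of all windows. Among the other measured members the window held 30 CG dinucleotides for Cadm4, 11 each for Cadm3 and Fat4, 3 for Fat2 and 2 for Fat1. Of these members GAGGAA was in the window of Fat2 alone, and GGAATG was in those of Fat1, Fat2 and Cadm3. Cadm1 had no entry in the promoter table.

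All 15 Fat3 probe sets had a lower mean in transgenic fat. They read the same RNA on the same arrays, so they are not replicates of the comparison. Their differences ran from -0.54 to -3.02 log2 units, with a median of -1.73. 12 of them differed by more than 1 log2 unit and 5 by more than 2. The groups did not overlap for 12 of the 15, where 4.42% of all 35556 probe sets had lower transgenic values without overlap. In the limma fit over all probe sets, 1 of the 15 (10591135, difference -2.54, SE 0.46) was among the 0.520% that passed as lower. Its wild-type values were 8.01, 7.33, 5.58 and 6.47 for replicates 1 to 4, and its transgenic values lay from 4.16 to 4.43.

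The array pattern was shared by the 15 probe sets. In all 15 probe sets wild-type replicate 1 was the highest of the 8 arrays and replicate 2 the second. Wild-type replicate 3 was the lowest wild-type array in all 15, and it stayed above every transgenic array in 12. As medians over the 15 probe sets the wild-type arrays stood at 6.68, 6.49, 5.02 and 5.52 for replicates 1 to 4, and the transgenic arrays at 4.36, 4.43, 4.30 and 4.31. The lowest correlation between a pair of probe sets over the 8 arrays was r = 0.82 and the median of the 105 pairs was 0.97, given as a description of probe sets that share their arrays. The wild-type SD was larger than the transgenic SD in all 15, at 0.46 to 1.27 against 0.10 to 0.40.

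**Figure D2:**
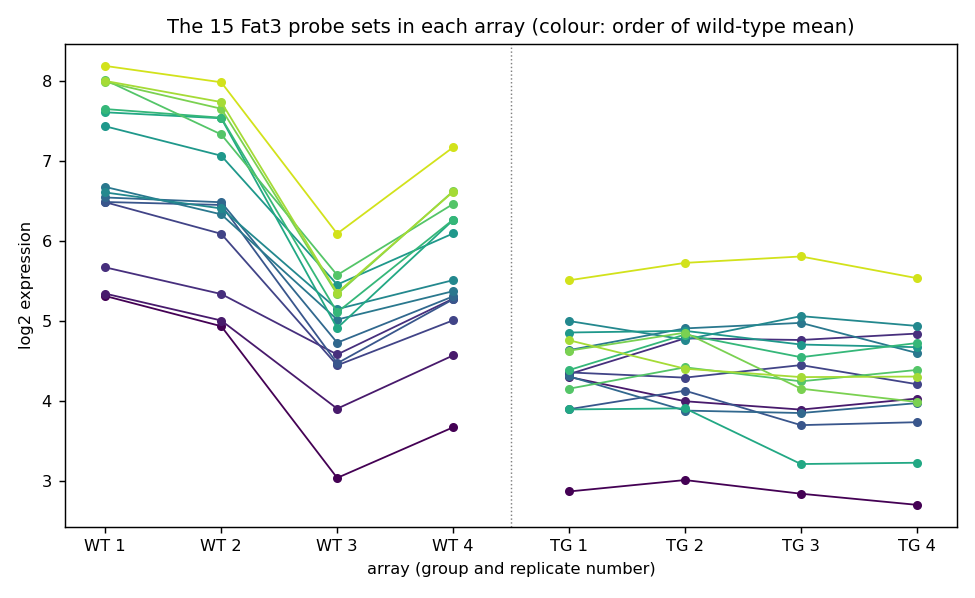
Log2 expression (vertical axis) of the 15 Fat3 probe sets in the 4 wild-type (WT) and 4 transgenic (TG) arrays. Each line joins the values of 1 probe set within a group, coloured by the order of its wild-type mean. Wild-type replicates 1 and 2 are the 2 highest arrays in every line, and wild-type replicate 3 is the lowest wild-type array.

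The size of the Fat3 difference varied between probe sets. The widest difference, -3.02 (SE 0.57), came from probe set 10591123, with a wild-type mean of 6.58 ± 1.27 and a transgenic mean of 3.57 ± 0.39 (SD, n = 4 each). The narrowest, -0.54 (SE 0.23), came from 10591090, with means of 5.22 ± 0.46 and 4.69 ± 0.23. In 9 of the 15 the transgenic mean lay below 4.49, the 25th percentile of all gene means. No background level was measured. Where in the gene each probe set lies was not used here.

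**Figure D3:**
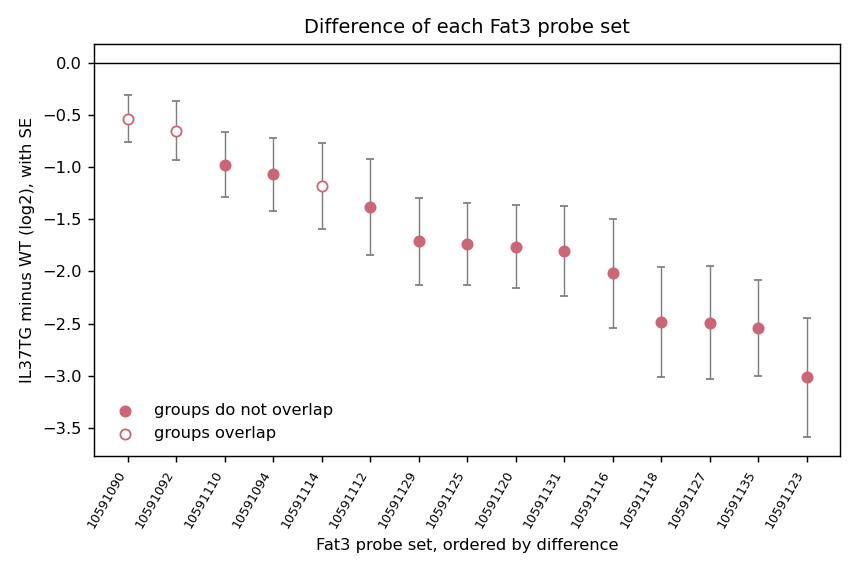
Difference of each Fat3 probe set (IL37TG minus WT, log2, with the limma SE; vertical axis), ordered by size along the horizontal axis. Open points are the 3 probe sets whose groups overlap. All 15 lie below 0, from -0.54 to -3.02.

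The other Fat genes did not share the Fat3 difference. Fat1, a regulator of actin and cell migration, was measured at 9.19, 9.26, 9.23 and 9.32 in wild-type replicates 1 to 4 and at 9.32, 9.15, 9.12 and 9.07 in the transgenic ones. The groups overlapped, and the difference was -0.08 (SE 0.07). Fat4, the partner of Dchs1, was measured at 8.16, 7.93, 8.30 and 7.98 in wild-type and at 8.12, 8.21, 8.17 and 8.32 in transgenic fat. Its groups overlapped too, with a difference of 0.11 (SE 0.09). Fat2, known from cerebellar granule cells and skin, had means of 4.39 ± 0.07 and 4.35 ± 0.09 (SD, n = 4 each), both below the 25th percentile of gene means. Its arrays ran from 4.28 to 4.44 in wild-type and from 4.26 to 4.46 in transgenic fat, and the groups overlapped.

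Cadm1 was read by a single probe set. The wild-type arrays gave 8.71, 8.72, 7.99 and 8.21 log2 units for replicates 1 to 4, and the transgenic arrays 6.76, 6.80, 6.97 and 6.82. The lowest wild-type array was 1.02 log2 units above the highest transgenic array. The group means were 8.41 ± 0.37 and 6.84 ± 0.09 (SD, n = 4 each), a difference of -1.57 (SE 0.17). By size it ranked 58th of 18820 genes, and Fat3 ranked 39th. Leaving out any 1 array, the Cadm1 difference ran from -1.71 to -1.47 and the gene stayed past the threshold. It was not past it without IL37TG replicates 2 and 3, whose array names end in 2, where 13 genes passed as higher and 5 as lower in all.

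Cadm3 and Cadm4, which bind each other where axons meet Schwann cells, showed no such separation. Cadm3 was measured at 7.11, 7.14, 7.17 and 7.19 in wild-type replicates 1 to 4 and at 7.30, 7.34, 7.20 and 7.09 in the transgenic ones. The transgenic arrays enclosed the wild-type range, with a difference of 0.08 (SE 0.07). Cadm4 was measured at 5.86, 5.35, 5.30 and 5.37 in wild-type and at 5.23, 5.16, 5.45 and 5.26 in transgenic fat. Its difference was -0.20 (SE 0.13), with overlapping groups and 1 wild-type array, replicate 1, apart from the other 3. Without that array the Cadm4 difference was -0.064.

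Fat3 and Cadm1 were uneven across the wild-type arrays in the same way, with replicates 1 and 2 high, replicate 4 between and replicate 3 low. Macrophage markers moved with them. The mean of 12 macrophage genes was 10.01, 10.08, 9.14 and 9.70 in wild-type replicates 1 to 4 and 9.10, 9.13, 9.13 and 8.74 in the transgenic ones. 11 of the 12 had a lower transgenic mean. Cx3cr1 (log2 -0.63, SE 0.11), Trem2 (log2 -2.02, SE 0.42) and Fcgr1 (log2 -1.09, SE 0.23) fell in the limma fit, where 1.27% of all genes fell. Leaving out 1 array in turn, Trem2 and Fcgr1 passed only without wild-type replicate 3, and Cx3cr1 only without wild-type replicate 3 or transgenic replicate 2. The part of macrophages in the Fat3 and Cadm1 differences was not tested.

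On wild-type replicate 3 the macrophage mean stood 0.11 log2 units above the transgenic mean. Fat3 on the same array stood 0.45 above its transgenic mean, and Cadm1 stood 1.15 above. These offsets belong to unlike group differences, -0.71 for the macrophage mean, -1.71 for Fat3 and -1.57 for Cadm1. The macrophage genes that passed the threshold stood above their transgenic means on that array. Trem2 stood at 8.56 against 7.78, Cx3cr1 at 6.92 against 6.44 and Fcgr1 at 7.22 against 6.76. Their groups did not overlap, so this direction was certain, as it was for Fat3 and Cadm1. They do not stand for the list, whose mean over all 12 genes was only 0.11 higher on that array. With that array left out the Fat3 difference was -2.14 and the gene passed the threshold. As it held the lowest Fat3 level among wild-type arrays, a wider difference without it was certain. Without wild-type replicate 1 the Fat3 difference was -1.44.

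**Figure D4:**
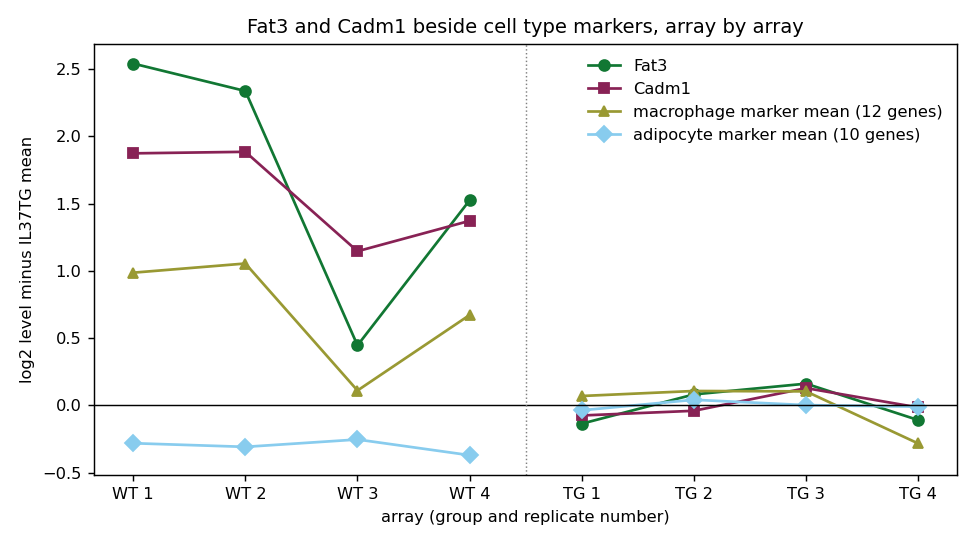
Log2 level minus the transgenic mean (vertical axis) in the 4 wild-type (WT) and 4 transgenic (TG) arrays for Fat3, Cadm1, the mean of 12 macrophage markers and the mean of 10 adipocyte markers. Lines join values of 1 series within a group. On wild-type replicate 3 the macrophage mean is 0.11, Fat3 0.45 and Cadm1 1.15 above the transgenic mean.

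Other cell types were followed by marker lists. Adipocyte markers stood at 11.77 to 11.88 as a list mean in wild-type and 12.10 to 12.18 in transgenic fat. 3 of the 10 measured rose, Pck1 (log2 1.57, SE 0.16), the glucose transporter Slc2a4 (log2 0.74, SE 0.11) and Adipoq (log2 0.30, SE 0.06), and none fell. Over all genes 3.34% passed the threshold, either way. The median difference over the 10 was 0.11, and 2 of them had a lower transgenic mean. Pck1 passed whichever array was left out, Slc2a4 without 4 of the 8 arrays (wild-type replicate 3, transgenic replicates 1, 3 and 4) and Adipoq only without wild-type replicate 3. 10 mast cell markers, listed because mast cells carry Cadm1, had list means of 6.03, 5.97, 5.57 and 5.73 in wild-type replicates 1 to 4 and 5.32, 5.88, 5.53 and 5.59 in the transgenic ones. As for Fat3 and Cadm1, wild-type replicates 1 and 2 were the highest and replicate 3 the lowest wild-type array, while the groups overlapped. 9 of the 10 had a lower transgenic mean, with a median difference of -0.23. Of the 10 markers 2 had an unadjusted p of at most 0.05, where 20.6% of all genes did, and none passed the threshold. Their part in the Cadm1 and Fat3 differences was not tested. 15 measured Schwann cell and nerve markers had list means of 5.32 to 5.62 and 5.41 to 5.70, with 1 rising, the sodium channel gene Scn7a (log2 0.37), and none falling, though Scn7a passed only without wild-type replicate 3 or transgenic replicate 3 when 1 array was left out. 11 neuronal markers were dim, 8 of them with a mean under 4.49, and their list means were 4.50 to 4.58 and 4.62 to 4.74. The lowest p-values among them were those of Syt1 (log2 0.29) and Stmn2 (log2 0.35), neither past the threshold. 12 mesothelial markers ran from 7.48 to 8.52 and from 7.96 to 8.42, 12 endothelial markers from 9.92 to 10.06 and from 9.97 to 10.15, 12 fibroblast and progenitor markers from 9.73 to 9.99 and from 9.71 to 10.01, and 12 smooth muscle markers from 7.62 to 8.00 and from 7.71 to 8.51, with none past the threshold. 14 markers of the epididymal epithelium, the neighbouring duct, ran from 4.09 to 5.06 in wild-type and from 4.16 to 4.33 in transgenic fat, with wild-type replicates 3 and 4 highest, the opposite arrays to those high in Fat3 and Cadm1.

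Array names carry a letter and a number that may stand for the row and column of a plate, and the groups were not spread evenly over these. Within column 5 (wild-type replicate 3, transgenic replicate 2) the difference was -0.36 for Fat3 and -1.19 for Cadm1. Within column 7 (wild-type replicates 1 and 4, transgenic replicate 3) it was -1.87 and -1.49, and within column 9 (wild-type replicate 2, transgenic replicates 1 and 4) -2.46 and -1.93. In row G, the only row with both groups (wild-type replicates 3 and 4, transgenic replicate 1), it was -1.12 and -1.33. Their direction was fixed, because the groups did not overlap for either gene. For the macrophage mean the differences were 0.00 within column 5, -0.73 within column 7, -1.16 within column 9 and -0.32 in row G.

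None of the measured ligand and planar polarity genes of the Fat proteins passed the threshold by limma. Dchs1, the ligand of Fat4, had means of 7.25 ± 0.03 and 7.24 ± 0.10 (SD, n = 4 each; log2 -0.01, limma adjusted p = 0.952). Fjx1, relative of the fly kinase that tunes the binding of Fat to its ligand, differed by -0.22 (SE 0.10, limma adjusted p = 0.246), and Dchs2 had no probe set in the annotation used. Evl, an actin regulator of the Ena/VASP family that the Fat1 tail is known to bind, differed by -0.62 (SE 0.24, limma adjusted p = 0.198). Evl passed the threshold without wild-type replicate 3 (log2 -0.84, limma adjusted p = 0.0424), and over the alternatives its adjusted p ran from 0.0424 to 0.940. Of the 19 measured genes of this list 1 had an unadjusted p of at most 0.05, where 3878 of all 18820 genes (20.6%) did, with a median difference of -0.01 where that of all genes was 0.02.

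Of 27 measured Hippo pathway genes 1 rose and none fell, 5 had an unadjusted p of at most 0.05, and the median difference was 0.00. The widest difference was that of Wwc1 (log2 -1.05, SE 0.40, limma adjusted p = 0.1875), whose groups did not overlap. The gene that rose was Amotl2, an angiomotin that holds YAP at junctions and is itself a YAP target. Its wild-type arrays gave 9.02, 9.10, 9.24 and 9.12 and its transgenic arrays 9.55, 9.53, 9.46 and 9.49, without overlap (log2 0.39, SE 0.06, limma adjusted p = 0.0202). Its relative Amotl1 differed by 0.18 (SE 0.05, limma adjusted p = 0.0814). Of 20 YAP and TAZ target genes 2 rose and none fell, Amotl2 again and the phosphatase Ptpn14 (log2 0.43, SE 0.07, limma adjusted p = 0.0255), and the median difference was -0.01. In this list 9 of 20 had an unadjusted p of at most 0.05, against 5 of 27 Hippo genes and 20.6% of all genes. The groups did not overlap for 5 genes with higher and 1 with lower transgenic values, where 14.0% of all genes did not overlap. By mean, 11 of the 20 were lower in transgenic fat. The widest difference of the list was that of Ccn2 (log2 0.69, SE 0.27, limma adjusted p = 0.196), whose groups overlapped. The lowest differences of the list were those of 2 genes that did not pass the threshold, the stress-response gene Gadd45b (log2 -0.66, SE 0.16, limma adjusted p = 0.0648), whose groups did not overlap, and the membrane repair gene Myof (log2 -0.60, SE 0.16, limma adjusted p = 0.0877), whose groups did. Their adjusted p ran over the alternatives from 0.0271 to 0.632 for Gadd45b and from 0.0188 to 0.721 for Myof, which passed without wild-type replicate 3. Leaving out 1 array in turn, Amotl2 passed without wild-type replicate 3, transgenic replicate 3 or transgenic replicate 4, and Ptpn14 passed without wild-type replicate 3 or transgenic replicate 1. Both were lost without any 1 of wild-type replicates 1, 2 and 4 and transgenic replicate 2. Over the alternatives the adjusted p ran from 0.00678 to 0.266 for Amotl2 and from 0.00902 to 0.49 for Ptpn14.

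Of 25 measured Cadm partners and nectins none passed by limma, with a median difference of 0.05. An unadjusted p of at most 0.05 was reached by 6 of them and by 20.6% of all genes. Crtam, the receptor for Cadm1 on activated lymphocytes, had means of 4.34 ± 0.15 and 4.35 ± 0.19 (SD, n = 4 each), both under 4.49. Nectin3, an adhesion partner, differed by -0.28 (SE 0.09, limma adjusted p = 0.147), and Epb41l3, which ties the Cadm1 tail to actin, by -0.27 (SE 0.20, limma adjusted p = 0.475). The lowest p-values were those of Cd226, the lymphocyte receptor of nectins (log2 0.63, SE 0.15, limma adjusted p = 0.0655), and of the polarity gene Pard3 (log2 0.25, SE 0.06, limma adjusted p = 0.0727). Of 29 other cadherins and catenins none passed and 4 had an unadjusted p of at most 0.05, where 20.6% of all genes did. The lowest p-values among the 29 were those of Cdh23 (log2 0.49, SE 0.12, limma adjusted p = 0.0693) and of plakoglobin, Jup (log2 0.42, SE 0.12, limma adjusted p = 0.106). The widest differences were those of Cdh16 (log2 -1.28, limma adjusted p = 0.3158) and Cdh1 (log2 -1.08, limma adjusted p = 0.2915), with overlapping groups. Cdh1 is also one of the epididymal epithelium markers. The cadherin list mean was highest in wild-type replicates 3 and 4, as for those markers. The planar polarity, Hippo and mesothelial list means were highest in the same arrays, so this pattern is not particular to epithelial genes. Its cause was not tested. Over the 5 lists, 115 distinct genes were measured, and the 2 that passed were 1.74% of them, beside 3.34% of all genes.

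**Figure D5:**
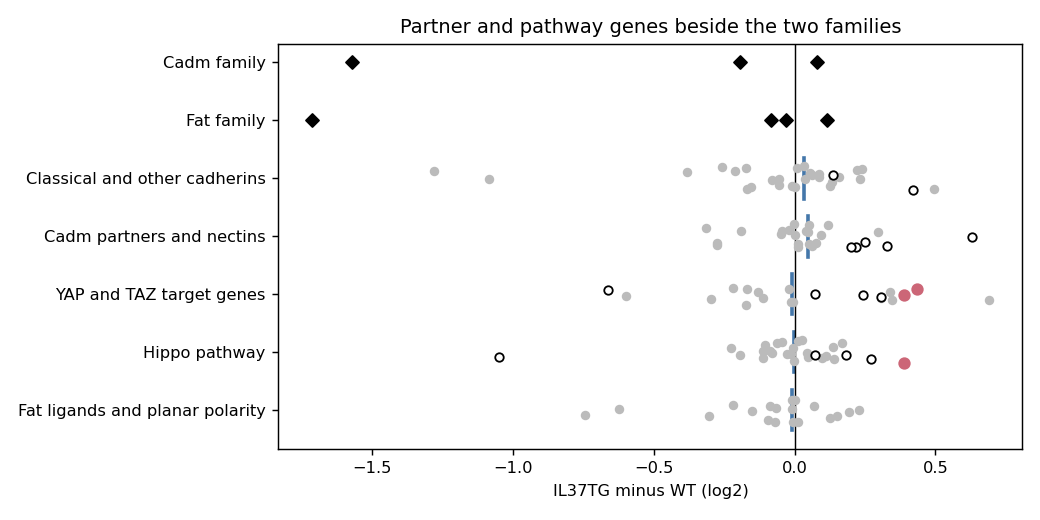
Difference of each gene (IL37TG minus WT, log2; horizontal axis) in 5 partner and pathway lists and, as diamonds, the Fat and Cadm genes. Filled red points passed limma at an adjusted p of 0.05 (Amotl2, which stands in 2 lists, and Ptpn14), open points have groups that do not overlap, grey points overlap, and bars mark list medians, which lie between -0.01 and 0.05.

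The genes most like Fat3 and Cadm1 were taken by Pearson r over the 8 arrays, among the 9410 genes at or above the median gene mean. Since the groups are apart in both, a like group difference raises r, and so does a like spread over the wild-type arrays. The r values are given as a description. The 5 most like Fat3 were Fgd4, an exchange factor for Cdc42 (r = 0.99), the proton-activated chloride channel gene Pacc1, Tbc1d14, the Ras regulator Rasa1 and the kinase gene Cdk18. None of these 5 passed by limma, and neither did Fat3, whose values they were chosen to follow. Fgd4 had 8.92, 9.02, 7.97 and 8.50 in wild-type replicates 1 to 4 and 7.71, 7.83, 7.81 and 7.69 in the transgenic ones, so that it shared the low wild-type replicate 3. With group means removed, the correlation of these 5 with Fat3 was 0.96 to 0.98, over the same 8 arrays. The genes were picked by r on these arrays, so high values in part follow from the choice. The remaining spread of Fat3 lay mostly in the wild-type arrays (SD 0.95 against 0.15).

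The 5 most like Cadm1 were Hmox1, the haem oxygenase gene (r = 0.99), the creatine transporter gene Slc6a8, the prostaglandin D synthase gene Hpgds, the lectin receptor gene Cd72 and Wdr7. All 5 fell by limma, as Cadm1 did. They were chosen to follow its values, so these calls largely follow from the choice. Hmox1 was 9.78, 9.77, 9.48 and 9.57 in wild-type replicates 1 to 4 and 8.91, 8.80, 8.89 and 8.88 in the transgenic ones (log2 -0.78, SE 0.08, limma adjusted p = 0.00535), and it passed whichever array was left out. Cd72 differed by -2.35 (SE 0.32) and was lost without wild-type replicate 4. Hpgds (log2 -1.88, SE 0.29) passed without 3 of the 8 arrays (wild-type replicate 3, transgenic replicates 3 and 4), Slc6a8 (log2 -0.75, SE 0.11) without 4 (wild-type replicates 2 and 3, transgenic replicates 3 and 4), and Wdr7 (log2 -0.26, SE 0.06) without 1 (wild-type replicate 3). With the replicate, plate row and plate column blocks Cd72 gave adjusted p-values of 0.0658, 0.162 and 0.0541, Hpgds 0.0897, 0.120 and 0.0570, Slc6a8 0.0897, 0.171 and 0.0558, and Wdr7 0.124, 0.561 and 0.135, so that none of these 4 passed by limma with a block. Hmox1 passed with the replicate and plate column blocks and not with the plate row block (limma adjusted p = 0.0818). With group means removed, their correlation with Cadm1 was 0.88 to 0.96, which in part follows from their choice by r on the same arrays.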

How the data were processed

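Whole-transcript cDNA made from total RNA was biotin-labelled and read on single-colour arrays, per the labels' protocols. The authors deposited log2 values per probe set, made with RMA per the submitters' processing notes, with version and settings not given in the sources used here. RMA gives all arrays alike quantiles, which hides a shift common to most genes. Of 35556 probe sets, 21218 had 1 symbol, 1881 several and 12457 none. For 21185 probe sets the symbol was looked up through the Entrez identifier (table of GRCm38.p6). The probe set with the highest mean gave 18820 genes, fitted without a filter with limma 3.58.1 in R 4.3.3 (lmFit, eBayes, two-sided, Benjamini-Hochberg 0.05). Differences are IL37TG minus WT.

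The members and gene lists were chosen with earlier results of these data known. Named genes were the members, fixed partners (Dchs1, Dchs2, Fjx1, Crtam, Nectin3, Epb41l3), up to 5 passing genes (otherwise the 2 lowest p) of each pathway list, the 5 genes most like the leading member of each family, and the 2 lowest p of marker lists whose group ranges were apart. Fcgr1, Scn7a, Adipoq, Gadd45b, Myof, Ccn2, Wwc1, Cdh1, Cdh16 and Fat3 probe sets shown singly were named after their values were seen. The steps were tested on simulated data, where 92% of 50 genes changed by 1 log2 unit were called among 18820 genes. At 0.5 log2 units 60% were called. The simulated noise was independent between genes and arrays and had the same SD in both groups. The real data differ, as for Fat3 with an SD of 0.95 in wild-type and 0.15 in transgenic fat. The simulation therefore checks the steps and does not give the share of real changes that would be called. Plots used matplotlib 3.10.9 (Python 3.11.15).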

Additional observations from a re-analysis of the deposited data

Results flagged for a closer look

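142 groups of 4 arrays were examined for members, Fat3 probe sets, named genes (without Ccn2, Wwc1, Cdh1 and Cdh16) and list means. In 5 of them (3.52%) a single array lay far from its group, and chance alone flags about 1 in 20. Among the members, Cadm4 in wild-type replicate 1 stood at 5.86 against 5.30 to 5.37 in the other wild-type arrays. Fat3 probe set 10591090 in transgenic replicate 1 stood at 4.34 against 4.77 to 4.85 in the other transgenic arrays. The actin regulator gene Evl in transgenic replicate 4 stood at 8.43 against 9.04 to 9.07. The macrophage list mean in the same array was 8.74 against 9.10 to 9.13, and the mesothelial list mean in transgenic replicate 3 was 7.96 against 8.35 to 8.42.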

How the results depend on the processing

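The main analysis gave 390 genes as higher and 239 as lower, 1 of 7 members past the threshold (Cadm1), 2 pathway genes higher and 0 lower, and 1 of 15 Fat3 probe sets. Cadm1 kept its direction under all 20 alternatives and Fat3 under the 19 that held it (its mean was below that of the median gene). For most of these the direction was fixed. The groups did not overlap for either gene, so array omissions, array weights and blocks could not reverse it. The prior and the filters on gene means leave a difference unchanged. Cadm1 had 1 probe set, so the choice of probe set could not change its difference. In the order higher, lower, pathway genes higher, pathway genes lower and Fat3 probe sets, adjusted p at most 0.1 gave 857, 680, 7, 2 and 8 (2 members), adjusted p at most 0.01 gave 43, 26, 0, 0 and 0, and array weights 724, 539, 5, 1 and 5 (2 members). With the replicate block the counts were 40, 53, 0, 0 and 0, with the plate column block 44, 28, 0, 0 and 0, with the plate row block 10, 60, 0, 1 and 0, and without the 2 arrays named with a final 2 they were 13, 5, 0, 0 and 0 (0 members). Pathway genes were 4 higher and 1 lower above the 25th percentile gene mean and with a trended and robust prior (3 Fat3 probe sets), and 7 and 2 above the median gene (741 and 554 genes). Centring on medians gave 2 Fat3 probe sets. The plate row block moved the median Fat3 probe set to -0.92, Fat1 to 0.050, Fat2 to 0.10 and Fat4 to -0.02, and probe set 10591092 to 0.06. Leaving out 1 array in turn gave 50 to 520 genes higher, 32 to 668 lower, 1 to 2 members, 0 to 3 pathway genes each way, and 0 to 10 Fat3 probe sets, with the highest counts without wild-type replicate 3. The replicate numbers share no stated source, and deviations of same-numbered arrays correlated at 0.06 to 0.10. 2 of 8 arrays correlated best with their own number. The Cadm1 call held under the replicate block and the plate column block. With the plate row block every difference rests on row G, the only row with both groups, which held 1 transgenic array. There the Cadm1 difference was -1.33. The cause of these changes was not tested. No background level was measured, and in 9 of 15 Fat3 probe sets the transgenic mean lay below 4.49.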
